A study of Mus musculus with 64 samples.

Results

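Complex I (NADH:ubiquinone oxidoreductase) is the entry point of electrons from NADH into the mitochondrial respiratory chain. Its nuclear-encoded genes were taken from the deposited gene table by symbol: names that begin with Nduf and a letter a, b, c, s or v with a number, the assembly factors named Ndufaf, and Ndufab1. Of 16913 genes in the table, 48 fitted the rule: 37 subunits, 8 assembly factors, and 3 genes that were counted apart because they are not complex I subunits (Ndufa4, Ndufa4l2 and the processed pseudogene Ndufb4c). Ndufb1-ps is counted with the subunits by its symbol, although GENCODE M21 annotates it as a long noncoding RNA. All of them passed the filter on low counts, as did every gene of the table.

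The libraries were made from hearts of C57BL/6J mice with a cTnT-delta160E transgene, a troponin T form used to model hypertrophic cardiomyopathy (TG), or without it (nTG). Mice of either genotype and sex ran high-intensity interval training on a treadmill for 6 weeks (HIIT, called trained here) or stayed sedentary. Training took 3 sessions a week of 31 minutes, alternating 4 times between 85% and 50% of the mean speed reached in a graded test. Among males there were 7 sedentary nTG, 9 sedentary TG, 8 trained nTG and 8 trained TG libraries. Among females there were 8 sedentary nTG, 8 sedentary TG, 10 trained nTG and 6 trained TG libraries. No other allele or agent is named in the labels, and the promoter that drives the transgene, its founder line and the age of the mice are not given in the sources used here. The study design asks how the transgene and the training act on the heart in each sex.

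Total counts per library ranged from 34574813 to 67068562, with a median of 48001578. The column names of the gene table do not match its contents: taken by name, 32 libraries went against the labelled sex and 30 against the labelled genotype. Each lncRNA column, taken by its name, was therefore paired with its most correlated gene column, over 389 transcripts that include 0 of the genes described here. The best column was mutual for 64 of 64 libraries, with r of 0.599 to 0.863 against at most 0.404 for the next column. After the join 0 libraries went against their sex or genotype. Tnnt2, whose reads come from the endogenous gene and the transgene together, lay at 2665 to 3428 CPM (counts scaled to library size) in nTG and at 6903 to 12001 CPM in TG libraries. All results below rest on this join, and with columns taken by name the calls described here were lost. The heart muscle markers Actn2, Myh6, Tnni3, Ryr2, Myl2, Myl3 and Pln were above 0 in every library. Of 5 skeletal muscle markers only Tnni2 was measured, and of 4 brown fat markers Cidea and Plin1. Trained TG male replicate 4 and sedentary TG female replicate 7 stood apart from their groups, at the low and the high end of the subunits, and counts of calls that changed without them are given both ways.

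Complex I passes electrons from NADH through a flavin and a chain of iron-sulfur clusters to ubiquinone and pumps protons across the inner membrane. Its peripheral arm holds the NADH-binding N module and the ubiquinone-reducing Q module. Its membrane arm holds the proton pumps, whose core subunits are encoded by mitochondrial DNA, while the catalytic core of the peripheral arm and all accessory subunits are encoded in the nucleus. Assembly factors help to build the complex and are not part of the finished enzyme. Heart muscle is rich in mitochondria and expresses these genes at high levels.

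The promoters of nuclear respiratory genes are known for short motifs of the factors NRF1, GABPA (an ETS factor), ERR and YY1. RefSeq promoter windows on GRCm38.p6, of 250 bases before and 50 after a gene's start, were found for 33 of 37 subunits and 7 of 8 assembly factors. The YY1 word AAGATGGC, searched on both strands, occurred in 7 of 33 subunit windows (21.2%) and in 2.75% of all 32851 windows. The NRF1 word GCGCATGCG occurred in 2 of 33 (6.06%, against 1.75% of all windows), and the GABPA word CCGGAAGT in 1 of 33 (3.03%, against 3.89%). The ERR word TCAAGGTCA occurred in 0 of 33, against 0.423% of all windows. Windows were counted, so that a word and its overlapping reverse complement, as for NRF1, count once.

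All 7 YY1 words in subunit windows were read in the direction of the gene, 22 to 38 bases after its start, in annotated exons. Over all windows, 30.6% of 927 occurrences had that direction and lay after the start, in 0.865% of windows. The word holds the letters of a start codon. The 7 stretches are shown because they share this place, with the word in capitals, 5′ to 3′ along the gene. Those of Ndufb8, Ndufs4 and Ndufs6 end where the window ends.
Ndufa3, chr7:3617385-3617412, plus strand: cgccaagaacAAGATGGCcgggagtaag
Ndufa9, chr6:126849098-126849125, minus strand: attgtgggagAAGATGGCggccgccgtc
Ndufb8, chr19:44555393-44555414, minus strand: ggagaaggtgAAGATGGCtgcc
Ndufc1, chr3:51408916-51408943, minus strand: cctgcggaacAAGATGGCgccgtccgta
Ndufs4, chr13:114388045-114388069, minus strand: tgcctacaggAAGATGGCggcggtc
Ndufs6, chr13:73328433-73328459, minus strand: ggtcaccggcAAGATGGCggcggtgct
Ndufs7, chr10:80249463-80249490, plus strand: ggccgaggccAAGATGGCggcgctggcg

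Among the assembly factors, 2 of 7 windows (28.6%) held the NRF1 word, those of Ndufaf4 and Ndufaf5, and 1 of 7 (14.3%) the YY1 word, that of Ndufaf8. A subunit and an assembly factor with the NRF1 word upstream of the start are shown, with the word in capitals.
Ndufa11, chr17:56717682-56717730, plus strand: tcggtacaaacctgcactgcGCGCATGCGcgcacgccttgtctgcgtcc
Ndufaf4, chr4:24897950-24897998, plus strand: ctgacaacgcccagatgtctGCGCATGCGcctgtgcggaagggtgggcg
A match of these letters is a description of the sequence and no measurement of binding. Binding was not measured in these samples.

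Levels between genes were compared per kilobase of the median length of a gene's basic transcripts in GENCODE M21. The median over the 37 subunits was 126.7 CPM per kilobase. The accessory subunit Ndufa11 at 365.3 and the core subunit Ndufs7 at 365.2 CPM per kilobase were near the high end. Ndufb1-ps was the lowest at 8.49 CPM per kilobase. The 8 assembly factors lay below most subunits, from 3.15 for Ndufaf2 to 22.9 CPM per kilobase for Ndufaf8, with a median of 6.57. Exons of 13 subunits overlap a gene on the other strand and 3 overlap a gene on the same strand. Among the assembly factors only Ndufaf3 overlaps another gene, Impdh2 on the other strand. The strand setting of the counting is not given in the sources used here, so reads of such pairs cannot be told apart.

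In sedentary males the subunits were lower in TG than in nTG hearts. By edgeR's quasi-likelihood test with p-values adjusted by Benjamini-Hochberg over all 16913 genes and a threshold of 0.05 (the rule for every call below), 35 of 37 subunits fell and 1 rose. Of all genes tested, 11.2% fell and 9.39% rose in this comparison. The median log2 fold change of the subunits was -0.26, with a range of -0.46 to 0.29, where the median over all genes was -0.0052. The mean log2 CPM over the subunits was 6.59 to 6.84 in nTG libraries with a median of 6.73, and 6.33 to 6.63 in TG libraries with a median of 6.46. In bulk tissue, fewer heart muscle cells and less of these RNAs per cell cannot be told apart.

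**Figure D1:**
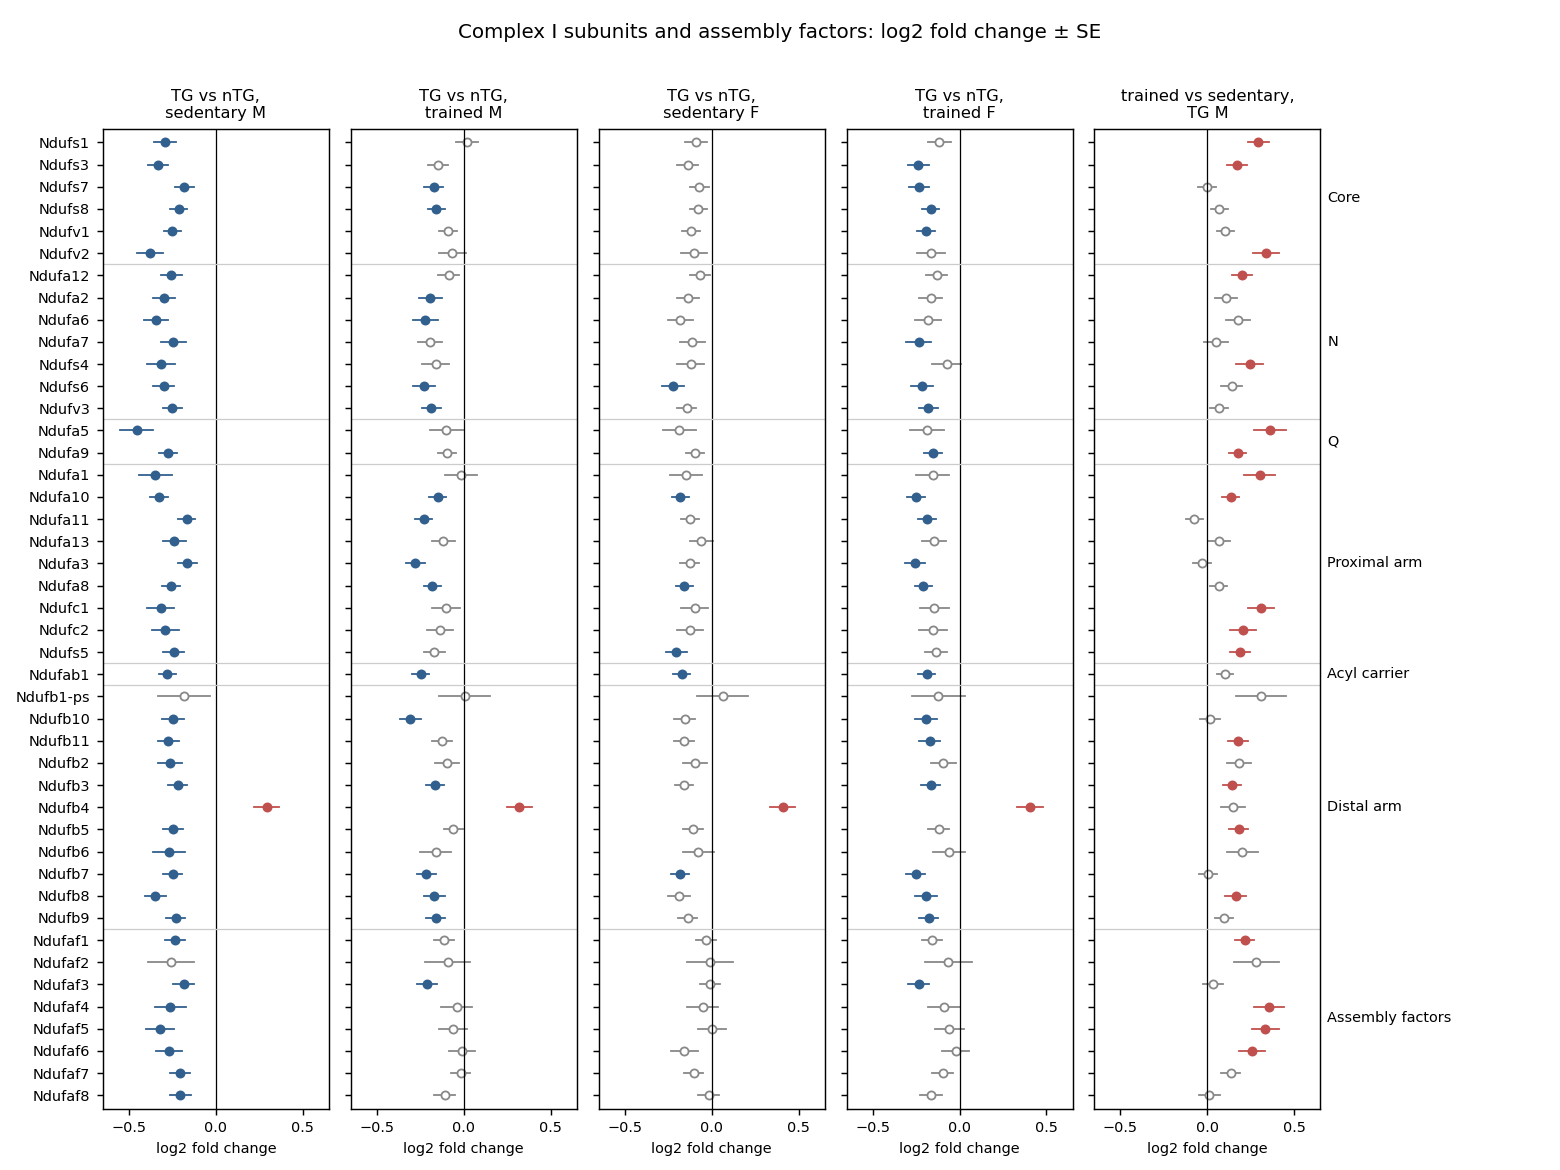
Log2 fold change (x axis) ± SE of subunits and assembly factors (rows, grouped by their place in complex I) in the 4 comparisons of TG with nTG and in the comparison of trained with sedentary TG males. Filled points passed the adjusted p of 0.05 (blue lower, red higher) and open points did not; Ndufb4 is the only filled red point in each TG against nTG panel.

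All 7 nuclear core catalytic subunits fell in TG sedentary males. Ndufs3, a core subunit of the Q module, ranged from 106 to 138 CPM in the 7 nTG libraries with a median of 124. In the 9 TG libraries it ranged from 86.4 to 110.0 CPM with a median of 99.9. The groups overlapped slightly, and the log2 fold change was -0.33 ± 0.06 (SE, edgeR adjusted p = 2.39e-05). Ndufv2, an iron-sulfur subunit of the N module, had a median of 176 CPM in nTG and 140.0 CPM in TG libraries, with a log2 fold change of -0.38 ± 0.08 (edgeR adjusted p = 0.000224). Its ranges met, with 152.9 to 211 CPM in nTG and 121.5 to 159 CPM in TG libraries. Ndufs1, the largest core subunit, fell by 0.29 on the log2 scale. Ndufv1, which binds NADH and the flavin, fell by 0.25, Ndufs8 by 0.21 and Ndufs7 by 0.18.

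The accessory subunits of the peripheral arm fell as well: 7 of 7 of the N module, with log2 fold changes of -0.34 to -0.24, and 2 of 2 of the Q module. Ndufa5 of the Q module had the lowest log2 fold change of all subunits, -0.46 ± 0.09 (edgeR adjusted p = 0.000281). In the proximal membrane arm 9 of 9 fell. Ndufa10 (chr1:92439010-92473860, minus strand), an accessory subunit of this arm, ranged from 384 to 488 CPM in nTG with a median of 459 and from 322 to 387 CPM in TG libraries with a median of 349. These ranges overlapped slightly, and the log2 fold change was -0.33 ± 0.05 (edgeR adjusted p = 2.72e-06). Ndufab1 (chr7:122085403-122101886, minus strand), the mitochondrial acyl carrier protein, had a median of 142.5 CPM in nTG and 117 CPM in TG libraries. Its log2 fold change was -0.28 ± 0.05 (edgeR adjusted p = 2.28e-05), with ranges of 134.8 to 155.7 CPM and 106 to 136 CPM that overlapped slightly.

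In the distal membrane arm 9 of 11 accessory subunits fell and 1 rose. Ndufb8 ranged from 218.5 to 267 CPM in nTG and from 171 to 218 CPM in TG libraries without overlap, with a log2 fold change of -0.35 ± 0.06 (edgeR adjusted p = 2.28e-05). Ndufb3 and Ndufa7, too, lay lower in all 9 TG libraries than in any nTG library, and Ndufb4 lay higher. Of all genes 1.3% lay lower and 0.798% higher in this way. Ndufb1-ps was the only subunit without a call, at 6.19 to 10.5 CPM in nTG and 5.25 to 7.82 CPM in TG libraries.

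Ndufb4 (chr16:37647170-37654453, minus strand), an accessory subunit of the distal arm, rose in TG hearts of each sex and training state. In sedentary males it ranged from 38.1 to 46.4 CPM in nTG with a median of 44.5, and from 46.97 to 59.0 CPM in TG libraries with a median of 51.3. The log2 fold change was 0.29 ± 0.07 among sedentary males (edgeR adjusted p = 0.00274) and 0.32 ± 0.07 among trained males (0.00148). It was 0.41 ± 0.07 among sedentary (0.000158) and also among trained females (9.57e-05). In every one of these comparisons it was the single subunit that rose. In trained males it ranged from 42.75 to 50.3 CPM in nTG and from 49.1 to 64.1 CPM in TG libraries. Among females it ranged from 31.95 to 49.97 CPM in sedentary nTG, 45.99 to 61.25 CPM in sedentary TG, 33.7 to 53.9 CPM in trained nTG and 50.4 to 59.7 CPM in trained TG libraries. These 3 pairs of groups overlapped. The table also holds Ndufb4c, an intronless copy of Ndufb4 on chromosome 15, and reads shared between near-identical copies can be split between them by the counting. Ndufb4c had log2 fold changes of -0.03, 0.18, 0.13 and 0.19 in the same 4 comparisons, none of them called, and of 0.12 ± 0.04 in their mean (edgeR adjusted p = 0.0307). Over all libraries Ndufb4c had a median of 58.46 CPM, above the 49.22 CPM of Ndufb4. How reads were split between them was not tested, so the values of Ndufb4 and its calls are uncertain.

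**Figure D2:**
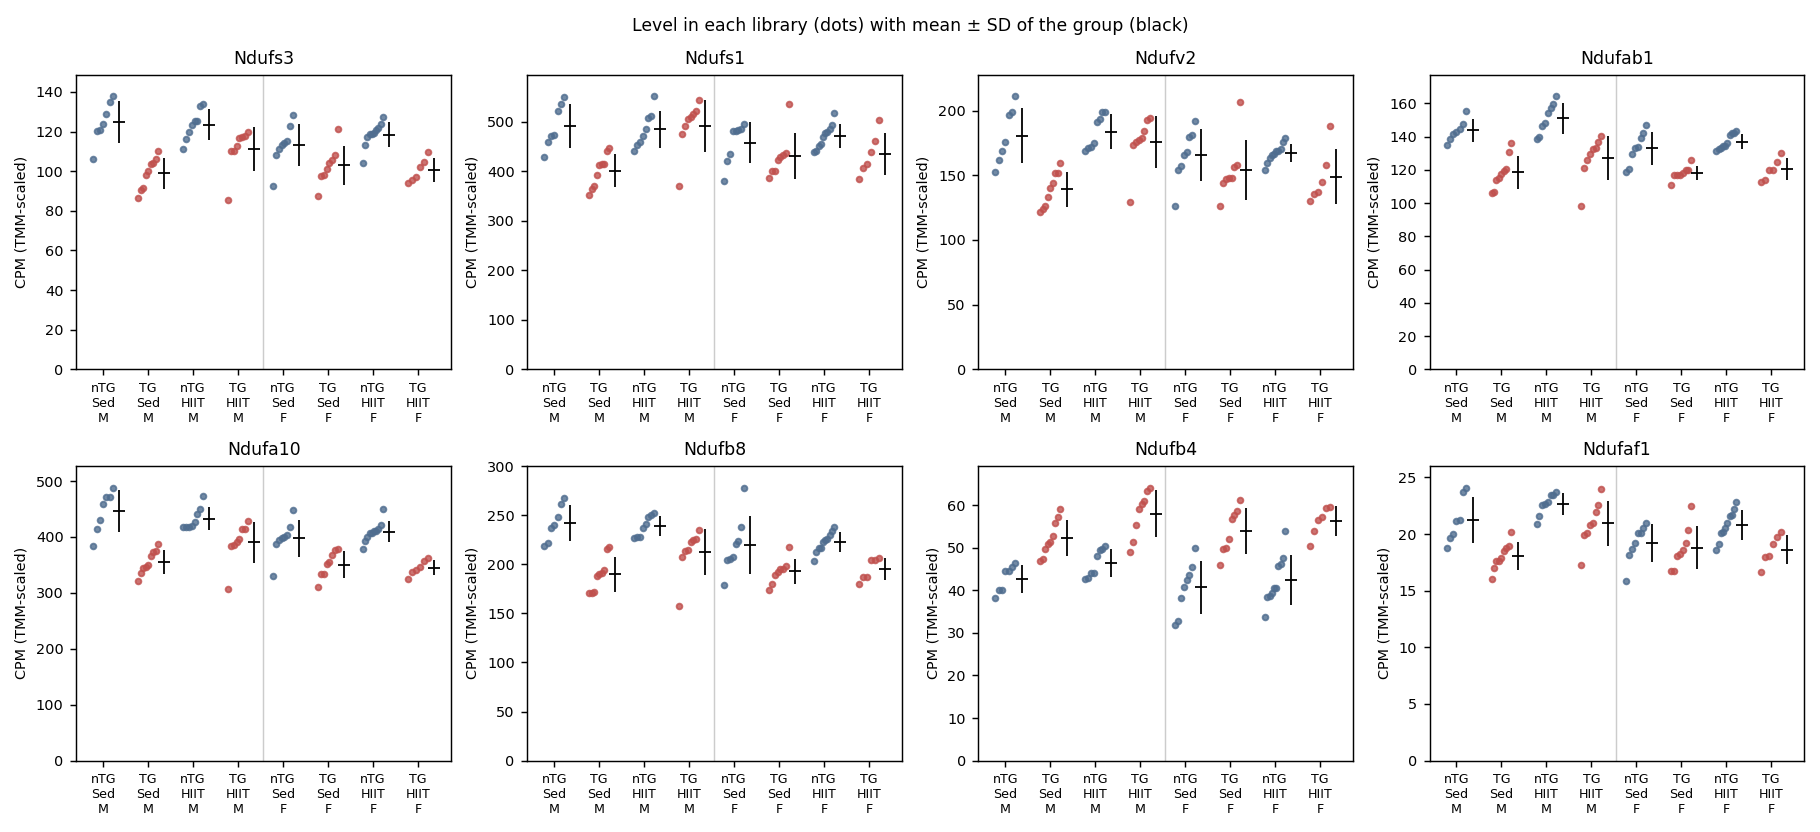
CPM (y axis, from 0, scaled by TMM) of 8 genes in each library, grouped by genotype, training and sex (nTG blue, TG red; dots of a group are sorted by value), with mean ± SD of the group in black. Ndufa10 lies lower in TG groups, Ndufb4 lies higher, and Ndufs1 and Ndufv2 are lowest in sedentary TG males.

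Of the assembly factors, 7 of 8 fell in TG sedentary males and 0 rose. Ndufaf1, which takes part in building the membrane arm, ranged from 18.8 to 24.1 CPM in nTG and from 16 to 20.15 CPM in TG libraries, with a log2 fold change of -0.24 ± 0.06 (edgeR adjusted p = 0.00201). Ndufaf5, which modifies a core subunit during assembly, ranged from 6.60 to 7.78 CPM in nTG and from 4.68 to 6.98 CPM in TG libraries. Its log2 fold change was -0.32 ± 0.08 (edgeR adjusted p = 0.00272), and both pairs of groups overlapped. Ndufaf2, the lowest of the 8, had a log2 fold change of -0.26 ± 0.13 and an edgeR adjusted p of 0.171. Of 13 measured genes of other complex I assembly proteins, 6 fell and 0 rose in TG sedentary males. Of these 13, 5 fell in trained males, 2 in sedentary and 5 in trained females and 11 in the mean over the 4 pairs of groups, with 0 higher in each, and 5 rose and 0 fell with training in TG males.

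In trained males 17 subunits fell and 1 rose (background 8.31% of all genes lower and 5.65% higher), with a median log2 fold change of -0.16. Ndufb10 of the distal arm ranged from 68.5 to 83.05 CPM in nTG and from 43.7 to 65.7 CPM in TG libraries, and every TG library lay below every nTG library, as for 1.29% of all genes. Its log2 fold change was -0.31 ± 0.06 (edgeR adjusted p = 0.000258). Ndufa3 of the proximal arm had a log2 fold change of -0.28 ± 0.05 (edgeR adjusted p = 0.000219) and Ndufab1 of -0.25 ± 0.05 (0.000195). Among core subunits Ndufs7 fell by 0.17 and Ndufs8 by 0.16 on the log2 scale. Ndufs1, Ndufs3, Ndufv1 and Ndufv2 were not called, with log2 fold changes from -0.15 for Ndufs3 to 0.02 for Ndufs1. Ndufaf3 was the only one of the 8 Ndufaf assembly factors that fell, by 0.21 (edgeR adjusted p = 0.0084).

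Library 4 of the trained TG males stood apart, with a mean log2 CPM over the subunits of 6.24 where the next was 6.55. It also had the group's lowest summed level of heart muscle markers, 44250 CPM, and the highest of fibroblast markers, 1434 CPM, and the part of these in the result was not tested. Without it 9 subunits were called in trained males in place of 18. Ndufs8 was then not called (log2 fold change -0.12, edgeR adjusted p = 0.0841), nor Ndufs7 (-0.12, 0.0997). Ndufs7 also lost its call without nTG replicate 1 or 7 or TG replicate 7, at adjusted p-values of 0.0515 to 0.0704. Ndufb10, Ndufa3 and Ndufab1 fell by 0.25, 0.23 and 0.20 without library 4, Ndufaf3 fell by 0.18 (edgeR adjusted p = 0.0329) and Ndufb4 rose by 0.35.

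In sedentary females 7 subunits fell and 1 rose (background 2.78% lower and 1.58% higher), with a median log2 fold change of -0.13. Ndufa10 ranged from 330.0 to 449 CPM in nTG with a median of 398, and from 311 to 378 CPM in TG libraries with a median of 353. The groups overlapped. Ndufa10 fell by 0.18 ± 0.05 (edgeR adjusted p = 0.0216) and Ndufs6, a zinc-binding subunit of the N module, by 0.22 ± 0.06 (0.0242). Ndufs6 ranged from 101.9 to 142 CPM in nTG and from 84.3 to 114 CPM in TG libraries. Ndufa10 lost its call without nTG replicate 7 or TG replicate 4, at adjusted p-values of 0.0827 and 0.0635. Ndufs6 lost it without nTG replicate 3, 7 or 8 or TG replicate 4 or 8, at 0.0548 to 0.0927. Ndufs1, Ndufs3, Ndufs7, Ndufs8, Ndufv1 and Ndufv2 had log2 fold changes of -0.14 (Ndufs3) to -0.07 (Ndufs7) and were not called. Of the assembly factors 0 were called by edgeR, DESeq2 or limma voom, with 1 of 8 and 16.4% of all genes at an unadjusted p under 0.05. The count of subunits moved between 2 and 14 when single libraries were left out. It moved beyond 1.5 times without nTG replicate 2 (5), 3 (4), 4 (14), 7 (2) or 8 (4), and without TG replicate 3 (5), 4 (3), 5 (5) or 8 (4). By limma voom 15 subunits fell and 1 rose, where that tool called 4.34% of all genes lower and 3.16% higher. Without TG replicate 7, which stood apart, 11 were called by edgeR, and Ndufb4 rose by 0.38.

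In trained females 20 subunits fell and 1 rose (background 9.43% lower and 5.37% higher), with a median log2 fold change of -0.17. Ndufa10 ranged from 378 to 449.8 CPM in the 10 nTG libraries and from 325 to 361.5 CPM in the 6 TG libraries. Ndufab1, Ndufa10, Ndufa3 and Ndufv3 lay below all nTG libraries in each TG library, as did 2.04% of all genes. Ndufa10 fell by 0.25 ± 0.05 (edgeR adjusted p = 0.000513) and Ndufb7 of the distal arm by 0.25 ± 0.06 (0.00102). Ndufb7 ranged from 91.9 to 113.5 CPM in nTG and from 80.7 to 98.1 CPM in TG libraries, which overlapped. The core subunits Ndufs3, Ndufs7, Ndufv1 and Ndufs8 fell by 0.24, 0.23, 0.19 and 0.17, and Ndufs1 and Ndufv2 were not called at -0.12 and -0.17. Ndufaf3 was the only one of the 8 Ndufaf assembly factors called, at -0.23 ± 0.06 (edgeR adjusted p = 0.0046). Without TG replicate 3 or 4 the count of subunits called was 12 in place of 21. Ndufs8 was then not called (edgeR adjusted p = 0.0558 and 0.0813).

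Averaged over the 4 pairs of groups, 35 subunits fell and 1 rose in TG hearts, where 20.5% of all genes fell and 18.5% rose. Ndufab1 had a log2 fold change of -0.22 ± 0.02 (edgeR adjusted p = 3.67e-11) and Ndufa10 one of -0.23 ± 0.03 (5.27e-11). Ndufb4 rose by 0.36 ± 0.04 (edgeR adjusted p = 4.97e-12). Of the core subunits, Ndufs3 fell by 0.21, Ndufv2 by 0.18, Ndufs7 and Ndufv1 by 0.16, Ndufs8 by 0.15 and Ndufs1 by 0.12. Of the assembly factors 7 of 8 fell, led by Ndufaf3 at -0.16 ± 0.03 (edgeR adjusted p = 8.1e-06) and Ndufaf1 at -0.13 ± 0.03 (0.000143). Without trained TG male replicate 4 there were 36 subunits and 6 assembly factors called, and without sedentary TG female replicate 7 there were 36 and 7. The difference of the TG effect between sedentary males and females gave 0 calls among the subunits by edgeR, DESeq2 and limma voom. At an unadjusted p under 0.05 there were 8 of 37 subunits and 8.7% of all genes, and edgeR called 0% of all genes. This difference, males minus females, was below 0 for all 37 subunits (median -0.146) and all 8 assembly factors (median -0.195). Its median over all genes was -0.0063.

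**Figure D3:**
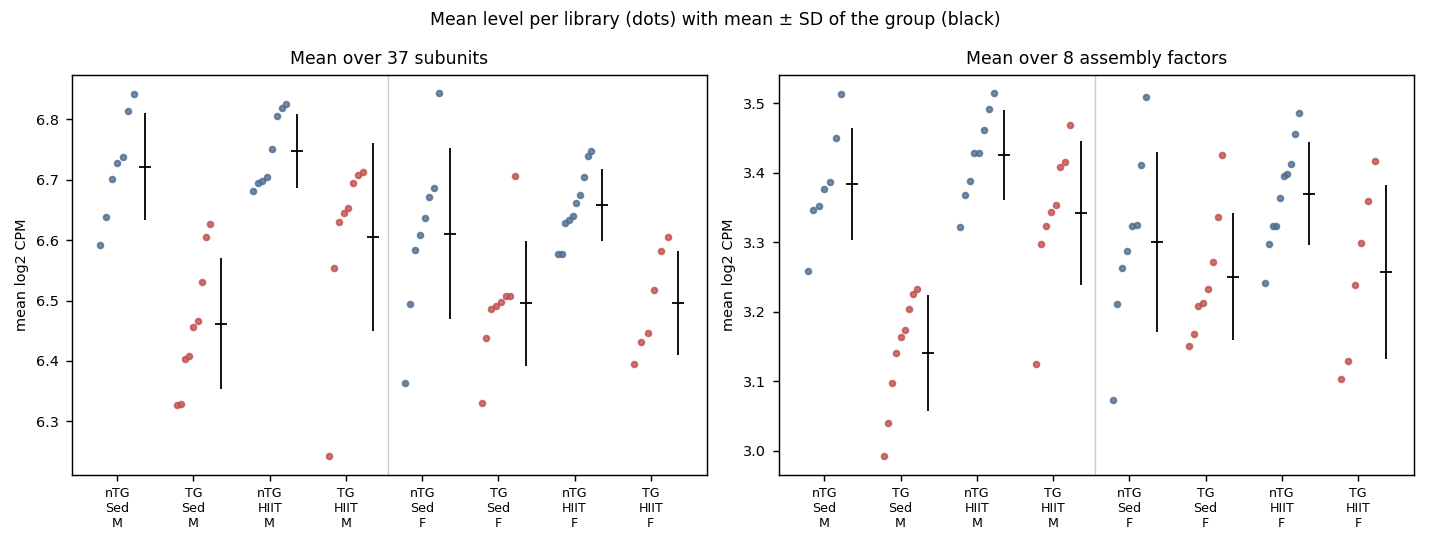
Mean log2 CPM (y axis) over the 37 subunits (left) and the 8 assembly factors (right) in each library, by genotype, training and sex (nTG blue, TG red, dots sorted within a group), with mean ± SD in black. Sedentary TG males lie lowest among males, and a single trained TG male lies at 6.24 in the left panel.

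Training was compared with sedentary housing within each genotype and sex. In TG males 16 of 37 subunits rose and 0 fell (background 10.3% higher and 7.6% lower), with a median log2 fold change of 0.15. This comparison and that of TG with nTG in sedentary males share the 9 sedentary TG libraries, so their values are given side by side. Ndufs1 (chr1:63143596-63176833, minus strand) had medians of 472.6 CPM in sedentary nTG, 412 in sedentary TG and 507 in trained TG males. It ranged from 352 to 447 CPM in sedentary TG and from 369 to 543 CPM in trained TG males, and rose by 0.29 ± 0.06 (edgeR adjusted p = 0.00176). Ndufv2 had medians of 176, 140.0 and 177.8 CPM in the same 3 groups and rose by 0.34 ± 0.07 (edgeR adjusted p = 0.00233). Ndufc1, a small subunit of the proximal arm, rose by 0.31 ± 0.08 (edgeR adjusted p = 0.00463), from 33.5 to 46.35 CPM in sedentary to 39.6 to 57.7 CPM in trained TG males.

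Other subunits that fell in sedentary TG males were not called with training. Ndufs7 had a log2 fold change of -0.0041 ± 0.05 (edgeR adjusted p = 0.969). Ndufs3 rose by 0.17 (edgeR adjusted p = 0.0286), a call lost without any of 7 libraries (trained TG replicates 1, 2, 3 and 7, sedentary TG replicates 4, 5 and 6, at 0.0546 to 0.0802). The core subunits Ndufv1 at 0.10 and Ndufs8 at 0.07 were not called. By place, 3 of 7 core, 2 of 7 N module, 2 of 2 Q module, 5 of 9 proximal arm and 4 of 11 distal arm subunits rose, and Ndufab1 at 0.10 was not called. Ndufb10 at 0.01 and Ndufb7 at 0.0059 stood at the low end, beside Ndufa11 at -0.08 and Ndufa3 at -0.03. Of the 7 subunits with the YY1 word 4 rose, with a median log2 fold change of 0.16, and of 26 others with a promoter window 11 rose, with a median of 0.16.

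Of the assembly factors 4 of 8 rose with training in TG males and 0 fell. Ndufaf5 rose by 0.33 ± 0.08 (edgeR adjusted p = 0.00348), from a median of 5.72 to 7.16 CPM. Ndufaf4 rose by 0.35 ± 0.09 (edgeR adjusted p = 0.00454), from a median of 20.9 to 27.7 CPM. Ndufaf1 and Ndufaf6 rose by 0.21 and 0.26. Ndufaf3 and Ndufaf8 had log2 fold changes of 0.03 and 0.01.

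When single libraries were left out, the share of all genes called was not counted. The count of subunits that rose with training in TG males then moved between 7 and 23. It was 7 without sedentary TG replicate 5, 8 without replicate 6, 8, 10 and 9 without trained TG replicate 2, 3 or 7, and 23 without trained TG replicate 4. Without the last, Ndufs1 and Ndufv2 rose by 0.33 and 0.38, and 5 assembly factors rose. Sedentary TG replicate 5 had summed blood markers (Hba-a1, Hba-a2, Hbb-bs, Hbb-bt and Alas2) of 4603 CPM, where the median of its group was 546.9. All 5 blood markers were lower in trained than in sedentary TG males, and their part in the result was not tested. By limma voom 25 subunits rose, where that tool called 14.4% of all genes higher.

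In the other 3 training comparisons (nTG males, nTG females and TG females) 0 subunits and 0 assembly factors were called with training by edgeR, DESeq2 or limma voom. At an unadjusted p under 0.05 there were 0, 2 and 0 subunits and 0, 3 and 0 assembly factors, and 5.91%, 14.2% and 3.58% of all genes. The share called by edgeR was 0%, 0.148% and 0% of all genes. The median log2 fold changes of the subunits were 0.01, 0.04 and 0.0048. The difference of the training effect between TG and nTG males was called for 0 subunits by edgeR (background 0%), with 12 and 14.8% of all genes at an unadjusted p under 0.05, and for 0 by DESeq2 (0.0769% of all genes). By limma voom 2 were called, where that tool called 1.77% of all genes. Ndufs1 had the lowest p, with a difference of 0.31 ± 0.09 and an edgeR adjusted p of 0.142. The difference between TG males and TG females was called for 0 subunits by edgeR (background 0%), with 12 and 18.1% of all genes at an unadjusted p under 0.05, for 1 by DESeq2 (1.32% of all genes) and for 8 by limma voom (5.48% of all genes). By edgeR it was called for 5 without trained TG male replicate 4. It was also 5 without trained TG female replicate 6 and 2 without sedentary TG female replicate 4. The same difference between genotypes in females gave 0 calls by all 3 tools, with 1 subunit and 6.46% of all genes at an unadjusted p under 0.05, and a background of 0% by each tool.

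In sedentary nTG hearts Ndufa11 was the only subunit that differed between the sexes, and it was lower in females (background 2.22% of all genes called). It ranged from 206.5 to 241.5 CPM in males and from 175 to 213 CPM in females, with a log2 fold change of -0.21 ± 0.05 (edgeR adjusted p = 0.0133). The groups overlapped. All 37 subunits had log2 fold changes below 0, from -0.21 to -0.0086, where 8482 of all 16913 genes were below 0. At an unadjusted p under 0.05 there were 13 subunits and 15.2% of all genes. All 7 heart muscle markers were below 0 and 1 was called lower in females (Actn2, log2 fold change -0.15), and 1 of 6 fibroblast markers was called higher in females (Lum, log2 fold change 0.71). The 5 macrophage markers were above 0 with a median log2 fold change of 0.29 and 0 calls by edgeR, with 4 at an unadjusted p under 0.05. The part of these in the result was not tested. The count was 0 without nTG female replicate 4 (Ndufa11 adjusted p = 0.0507), 5 without nTG female replicate 7 and 4 without nTG male replicate 5.

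Of the genes counted apart, Ndufa4, a subunit of cytochrome c oxidase despite its name, fell by 0.36 ± 0.10 in TG sedentary males (edgeR adjusted p = 0.00613) and rose by 0.37 ± 0.10 with training in TG males (0.00639). Ndufa4l2, a paralog of Ndufa4 known as a hypoxia-induced gene, had a log2 fold change of 0.07 in TG sedentary males. It fell by 0.29 ± 0.08 with training in TG males (edgeR adjusted p = 0.0089). It ranged from 15.2 to 18.1 CPM in sedentary and from 11.9 to 14.98 CPM in trained TG males, without overlap, where 0.331% of all genes lay lower in this way. Ndufb4c rose by 0.29 ± 0.09 with training in TG males (edgeR adjusted p = 0.0146).

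Nuclear genes of the other respiratory complexes were followed as fixed lists. In TG sedentary males 4 of 4 complex II, 8 of 9 complex III, 9 of 11 complex IV and 15 of 15 ATP synthase genes fell, with median log2 fold changes of -0.31, -0.24, -0.31 and -0.28. In trained males 2 of 4, 3 of 9, 5 of 11 and 6 of 15 of them fell, in sedentary females 0 of 4, 0 of 9, 2 of 11 and 2 of 15, and among females that trained 4 of 4, 3 of 9, 4 of 11 and 7 of 15. With training in TG males 1, 3, 6 and 8 of them rose. Every called gene of these lists had the direction of most called complex I subunits in these 5 comparisons. The 7 complex I genes of mitochondrial DNA gave 0 calls in TG sedentary males by edgeR, with 1 of 7 and 32.5% of all genes at an unadjusted p under 0.05, and a median log2 fold change of -0.06. In trained males mt-Nd4l, mt-Nd5 and mt-Nd6 fell by 0.36, 0.23 and 0.43, and with training in TG males mt-Nd3 rose by 0.68 ± 0.15 (edgeR adjusted p = 0.00198). In TG females 0 of the 7 were called by edgeR when sedentary, with 0 at an unadjusted p under 0.05 (16.4% of all genes), and 0 when trained, with 1 (28.8% of all genes). All 7 had log2 fold changes above 0 in sedentary females, with a median of 0.08, and the median in trained females was -0.115.

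**Figure D4:**
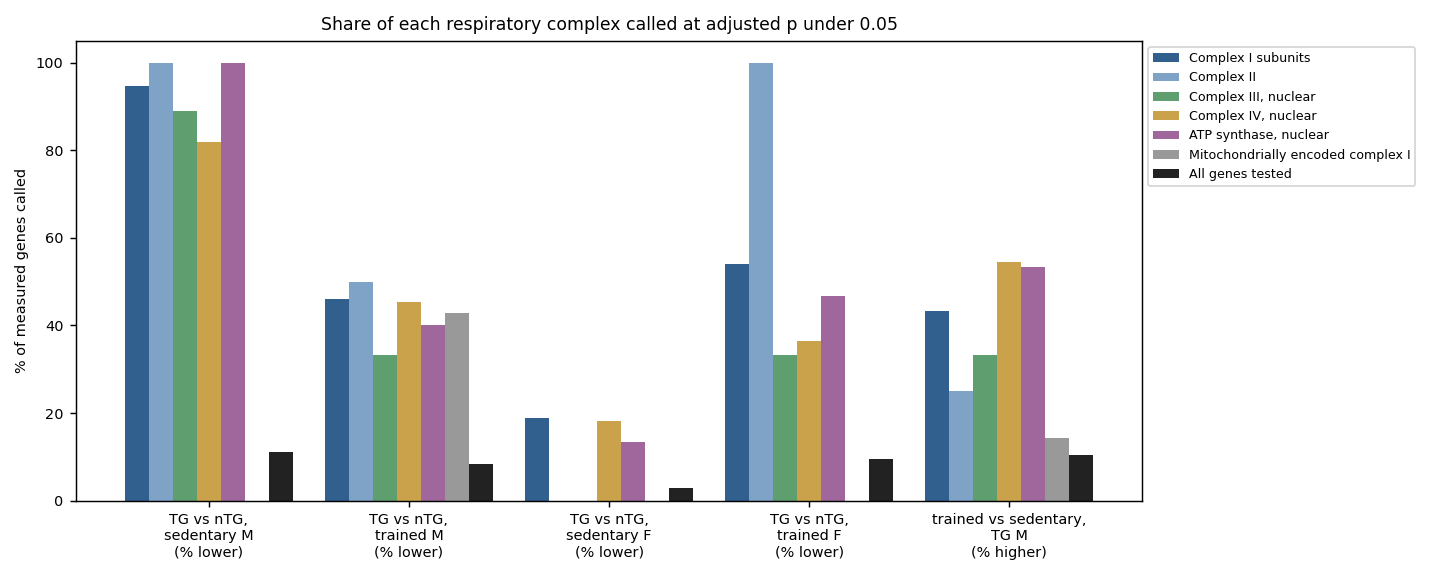
Share of measured genes (y axis, %, from 0) of each respiratory complex and of all genes tested that were called lower in TG hearts (4 groups of bars on the left) or higher with training in TG males (right). In sedentary males the nuclear lists lie between 81.8 and 100% and all genes at 11.2%.

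Regulators of mitochondrial gene expression formed a list of 10. In TG sedentary males Esrra, Esrrb, Gabpa and Ppara fell by 0.14, 0.17, 0.16 and 0.23, which are 4 of 10, and 0 rose, where 11.2% of all genes fell. Esrra and Esrrb fell in trained males as well, by 0.17 and 0.30 (8.31% of all genes), and in trained females, by 0.17 and 0.35 (9.43%). Esrrb fell by 0.20 in sedentary females (2.78% of all genes). In the mean over the 4 pairs of groups Esrra, Esrrb, Ppara and Ppargc1a fell, by 0.14, 0.25, 0.20 and 0.09, where 20.5% of all genes fell. Ppargc1a, a coactivator of mitochondrial biogenesis, was not called in TG sedentary males at -0.06, nor Nrf1 at -0.05. With training in TG males Gabpa, Tfam, Esrrg and Yy1 rose by 0.22, 0.22, 0.14 and 0.12, and Ppargc1b fell by 0.29, where 10.3% of all genes rose and 7.6% fell. Tfam, which maintains and transcribes mitochondrial DNA, was not called in TG sedentary males at -0.12.

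Markers of other cell types moved in the same comparisons. Of all genes tested, 11.2% fell and 9.39% rose in TG against nTG sedentary males, and 8.31% and 5.65% in trained males. These shares were 2.78% and 1.58% in sedentary females and 9.43% and 5.37% in trained females. In the mean over the 4 pairs of groups they were 20.5% and 18.5%. With training in TG males 7.6% fell and 10.3% rose. In TG sedentary males 4 of 7 heart muscle markers fell (Myh6, Myl2, Tnni3 and Pln, by 0.20 to 0.31 on the log2 scale), and their summed level was 48980 to 58840 CPM in TG and 55470 to 65790 CPM in nTG libraries. All 6 fibroblast markers and all 5 macrophage markers rose, with median log2 fold changes of 0.46 and 0.69. The summed fibroblast markers were 678 to 1165 CPM in TG and 608 to 813 CPM in nTG libraries, and the macrophage markers 149 to 251 and 114 to 155 CPM. Between trained TG and trained nTG males 1 of 7 heart muscle markers fell and 3 of 6 fibroblast and 3 of 5 macrophage markers rose, and all 5 blood markers fell, by a median of 1.22 on the log2 scale. Between TG and nTG females 0 of 7 heart muscle markers fell when sedentary and 3 of 7 when trained, and 1 and 3 of 6 fibroblast and 0 and 4 of 5 macrophage markers rose. With training in TG males 2 of 7 heart muscle markers (Pln and Ryr2) rose and 0 fell, with log2 fold changes of -0.06 to 0.34 over the 7, and 2 of 6 fibroblast and 3 of 5 macrophage markers fell. Of 5 endothelial markers 1 fell between trained TG and nTG males and 2 fell with training in TG males. Of 4 smooth muscle markers 0 were called in any of these comparisons by edgeR, with 1 of 4 and 32.5% of all genes at an unadjusted p under 0.05 in TG sedentary males. The skeletal marker Tnni2 rose by 0.97 on the log2 scale between trained TG and nTG females. Its level was low, with means of 1.1 CPM in trained TG and 0.56 CPM in trained nTG females. The brown fat marker Cidea fell by 0.22 on the log2 scale between trained TG and nTG males and by 0.34 between trained TG and nTG females. In the mean over the 4 pairs of groups 6 of 7 heart muscle, 2 of 5 endothelial and 3 of 5 blood markers fell, and all 6 fibroblast and 5 macrophage markers rose, as did Tnni2. Of the 2 brown fat markers 1 fell. No marker of these lists was at 0 in any library, and their part in the results was not tested.

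Within groups the subunits varied together. Over the 64 libraries, after each group's mean was taken off, the median Pearson r of 666 pairs of subunits was 0.65, with a range of -0.0985 to 0.92. All values share the library and its scaling. Ndufb8 followed the mean of the other subunits most closely (r = 0.947), followed by Ndufs6 (0.899) and Ndufb5 (0.894). Ndufa11 (0.314), Ndufs7 (0.421) and Ndufa3 (0.51) followed it least, and Ndufb4 had 0.643. Pairs of a subunit and an assembly factor had a median r of 0.387, and pairs of assembly factors 0.294.

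The mean of the subunits moved with that of the heart muscle markers, with r = 0.877 and Spearman's rho = 0.864 over 64 libraries. It was 0.817 without the 2 libraries farthest from the median, and 0.678 to 0.97 within single groups. With the mitochondrially encoded complex I genes r was 0.307 (rho 0.317), and 0.202 without the 2 farthest libraries. With fibroblast markers r was -0.675 (rho -0.556) and with macrophage markers -0.571 (rho -0.456). Without the 2 farthest libraries r was -0.541 for fibroblast and -0.453 for macrophage markers. Within single groups r was -0.257 to 0.792 for the mitochondrially encoded genes, above 0 in 5 of 8 groups. It was -0.959 to 0.162 for fibroblast markers, above 0 in 2 groups, and -0.975 to 0.0567 for macrophage markers, above 0 in 1. These 4 relations are descriptions without a test.

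**Figure D5:**
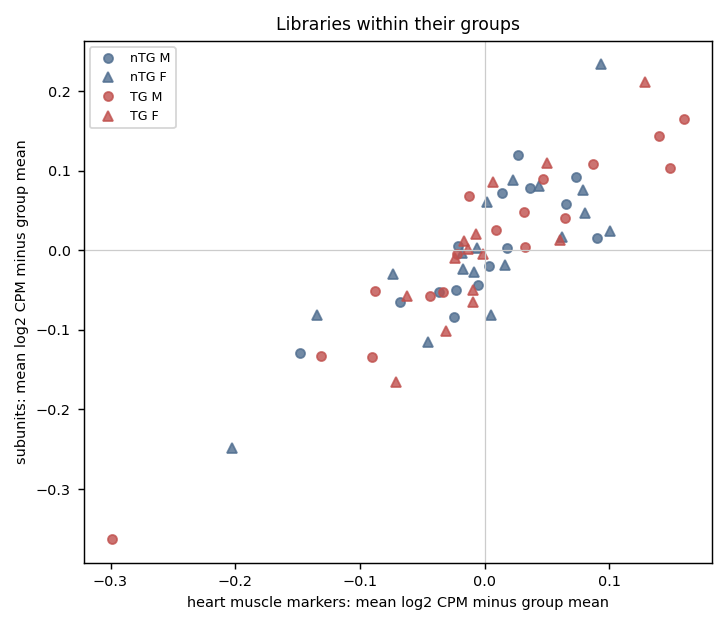
Mean log2 CPM of the 37 subunits minus the group mean (y axis) against that of 7 heart muscle markers (x axis), 1 point per library (nTG blue, TG red, males circles, females triangles). The points rise together (r = 0.877), and trained TG male replicate 4 lies at the lower left.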

How the data were processed

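Heart RNA of 64 mice was depleted of ribosomal RNA and sequenced, per the labels' protocols. The authors deposited whole-number counts per gene (16913 Ensembl identifiers, 16879 with a symbol in GENCODE M21). They also deposited estimated counts per lncRNA transcript, which served only to join columns. The submitters' processing notes name cutadapt 2.3, STAR 2.7.8a, RSEM 1.3.3 and GRCm38. The strand setting is not given in the sources used here. The lowest mean count of a gene in the deposited table is 10.5, so genes of low counts were not analysed here.

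The join used Pearson's r of centred log2 CPM (pseudocount 0.5) over autosomal transcripts with a mean of at least 20 counts in both tables. Counts were tested with edgeR 4.0.16 (TMM, filterByExpr, quasi-likelihood F test) in a single model of 8 groups that share an estimate of spread. P-values were adjusted by Benjamini-Hochberg over all genes per comparison. The fit was tested on simulated data. CPM are TMM-scaled. Means of log2 CPM used a prior count of 2. No 2 libraries were identical, and p-values measure the spread between these libraries.

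The members and lists were chosen with earlier results of these data known. The values of a member that would have been named are not reported here, and counts and means over members include it. Named genes are the 7 core subunits in each comparison with a call among them, the 3 rising and 3 falling subunits and the 2 rising and 2 falling assembly factors with the lowest p among calls of each comparison, and those counted apart; other names serve as examples of a group, of ranges or of groups without overlap. Alternatives were DESeq2 1.42.0, limma 3.58.1 voom with quality weights, median-of-ratios factors, mitochondrially encoded genes left out, no filter, groups of a single sex, a replicate block, single libraries left out and columns by name.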

Additional observations from a re-analysis of the deposited data

Results flagged for a closer look

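Libraries were checked for values that stand far from the rest of their group, by the gap to the nearest library as a share of the group's range. Over 17 measures (the mean of the subunits, that of the assembly factors and 15 named genes) in 8 groups, 136 checks in all, 11 values passed Dixon's 95% limit, and chance alone gives about 1 in 20. All 11 came from 3 libraries.

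Trained TG male replicate 4 had the lowest mean log2 CPM over the subunits, 6.242 against 6.554 for the next library. It was also the lowest for Ndufab1 (98.42 CPM, next 121), Ndufs1 (369.3, next 474.2), Ndufv2 (129.7, next 173.4) and Ndufa10 (307.3, next 383.8). Its summed fibroblast markers, 1434 CPM, were the highest of its group.

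Sedentary TG female replicate 7 had the highest mean log2 CPM over the subunits, 6.706 against 6.508. It was the highest for Ndufaf4 (37 CPM, next 27.72), Ndufs1 (536.3, next 436.3), Ndufv2 (206.8, next 157.8) and Ndufc1 (65.53, next 46.17). Trained nTG female replicate 3 had Ndufs6 at 136.8 CPM, where the next library had 127.2.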

How the results depend on the processing

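Of the named subunits and assembly factors, only results with a call were followed through the alternatives. Values without a call, the genes counted apart and the examples were not. The log2 fold changes of these called results kept their direction in all 1764 fits, and their call in 1742. The other 22 lost the call when a library was left out. Gene columns taken by name left 0 of 37 subunits called in TG against nTG (sedentary and trained, male and female, and their mean), in trained TG males and between the sexes, with 1 in trained nTG males. By name 0 assembly factors were called in sedentary, trained male, trained female and mean TG against nTG and in trained TG males. The column order is the cause by construction. DESeq2 called 2 subunits between the sexes (3.13% of all genes) and 1 for training by sex (1.32%). Limma voom called 16 subunits in sedentary females (7.5% of all genes), 25 in trained TG males (26.8%), 2 between the sexes (3.15%), 2 for genotype by training in males (1.77%), 8 for training by sex (5.48%), and 3 assembly factors in trained females (21.2%). The cause was not tested.

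Leaving out single libraries gave subunit counts of 34 to 36 in sedentary males, 9 to 20 in trained males, 2 to 14 in sedentary females, 12 to 22 in trained females, 7 to 23 in trained TG males, 0 to 5 between the sexes and 0 to 5 for training by sex. Assembly factor counts were 5 to 7 in sedentary males, 3 to 5 in trained TG males and 5 to 7 in the mean. In trained females they were 1 to 2, with 2 without nTG replicates 3, 4, 5 or 7 or TG replicate 6. The share of all genes called in the fits without a library was not counted.

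With a replicate block 3 subunits were called between the sexes (2.56% of all genes), and no other count moved beyond 1.5 times. Same-numbered libraries did not pair: the median correlation of their deviations was -0.027 to 0.0823, and at most 2 libraries of a comparison correlated best with their own number. The deposited table lacks genes of low counts, so leaving out the filter changed no gene.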
